A study of Mus musculus with 64 samples.

Results

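The genes described here are the 7 insulin-like growth factor (IGF) binding proteins of the mouse, Igfbp1 to Igfbp7, together with Igf1r, the type 1 IGF receptor. They were taken by symbol as a family, and all 8 were found among the 23338 genes that each of 64 RNA-seq libraries lists with a read count. The animals were C57BL/6 mice (C57BL/6 J in the study's methods), and no transgene, deletion or treatment is named for any group. The study compared the sexes at 4 stages: 12 individual eight-cell embryos at 2.5 days post-coitum (6 male, 6 female), 4 embryonic stem (ES) cell lines kept in 2i medium (2 male, 2 female), 24 livers of late-gestation fetuses (12 male, 12 female) and 24 livers of adults of 15 to 20 weeks (12 male, 12 female). Each embryo was 1 amplified library made from its pooled cells, and the sex of an embryo was read from its own X- and Y-linked transcripts. The embryos came from several litters, and the litter of each was not given. The litters of the fetal livers were not given either, and the tests took each fetal liver as independent. The ES lines were derived from eight-cell embryos, with 2 lines per sex. P-values measure the spread between these libraries.

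IGF1 and IGF2 are circulating and local growth factors that signal mainly through the IGF1 receptor, a tyrosine kinase. IGFBPs hold most of the IGF in blood and tissue fluid. They lengthen its life, deliver it or keep it from the receptor, and IGFBP3 or IGFBP5 forms the large circulating complex with the acid-labile subunit, the product of Igfals. The liver is the main source of circulating IGF1 under the drive of growth hormone. Hepatic Igfbp1 is known for its quick repression by insulin and its rise in fasting, whereas IGFBP7 binds IGFs weakly and is a product of blood vessels and other stroma.

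Reads on genes ranged from 1567583 to 10386931 per library. The adult livers were the shallowest (1567583 to 4757610) and the fetal livers lay between 5145371 and 8499603. Levels are given as CPM, each count scaled by the reads on genes of its library, and a floor of 3 reads equals 0.289 CPM where depth was greatest and 1.91 CPM where it was least. Intervals and such floors cover counting error only. The summed level of the 6 hepatocyte markers found in the files was 23964 to 47573 CPM over the 48 livers and at most 25.3 CPM in the ES lines, in which Ttr and Fgb had no read. A list of 6 pluripotency markers summed to 2883 to 3424 CPM in the ES lines and to at most 2.91 CPM in the livers. The share of counted reads that fell on genes did not overlap between the sexes in fetal liver, at 38.7% to 44.2% in males and 44.9% to 47.6% in females. In adult liver it was 26.8% to 38.7% in males and 36.8% to 46.7% in females. In each sex 4 adult livers (males 3, 6, 7 and 11 and females 19, 20, 21 and 24) formed a group of lower share, at most 29.8% in males and 39.3% in females.

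The 8 genes lie on 5 chromosomes of GRCm38. Igfbp1 (chromosome 11, 7197782 to 7202546, plus strand) and Igfbp3 (chromosome 11, 7206086 to 7213923, minus strand) are neighbours whose ends face each other across 3539 bases, with no protein-coding gene between them. Igfbp2 (chromosome 1, 72824503 to 72852474, plus strand) and Igfbp5 (chromosome 1, 72857932 to 72874884, minus strand) face each other in the same way across 5457 bases. Igfbp4 lies on chromosome 11 (99041244 to 99054392, plus strand), Igfbp6 on chromosome 15 (102144362 to 102149511, plus strand), Igfbp7 on chromosome 5 (77349240 to 77408041, minus strand) and Igf1r on chromosome 7 (67952827 to 68233668, plus strand). In GENCODE M21 the only exon overlap with another coding gene is 85 bases that Igfbp7 shares with the opposite-strand gene Polr2b, so a part of the Igfbp7 count is uncertain where counting did not use strand.

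Because the 2 genes of the chromosome 11 pair had unlike levels, the 250 bases before their starts are shown from RefSeq (GRCm38.p6), 5′ to 3′ on the strand of each gene: chr11:7197537-7197786 for Igfbp1 and chr11:7213924-7214173, minus strand, for Igfbp3. The Igfbp1 stretch ends at 7197786, past the start of 7197782 given above, so its last bases lie inside the gene as placed there. The start used here for Igfbp1 is the base after that stretch. Capitals mark CAAAACA, the core of the insulin response element that forkhead factors bind.
Igfbp1: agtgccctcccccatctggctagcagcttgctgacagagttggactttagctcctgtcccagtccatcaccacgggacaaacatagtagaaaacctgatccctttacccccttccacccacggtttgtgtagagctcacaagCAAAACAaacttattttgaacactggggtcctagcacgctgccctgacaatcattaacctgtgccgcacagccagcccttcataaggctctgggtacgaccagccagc
Igfbp3: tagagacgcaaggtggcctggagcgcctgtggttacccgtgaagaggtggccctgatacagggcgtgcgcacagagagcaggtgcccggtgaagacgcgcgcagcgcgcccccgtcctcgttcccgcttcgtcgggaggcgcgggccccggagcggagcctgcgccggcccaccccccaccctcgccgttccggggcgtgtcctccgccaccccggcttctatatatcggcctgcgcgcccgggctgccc
All 8 genes matched the promoter table, with 9 windows from 250 bases before to 50 after a start. CAAAACA, searched on both strands, occurred in 1 of the 9 windows, that of Igfbp1, where it begins 108 bases before the start, and in 6.28% of the 32851 windows of all genes. The letters TTCNNNGAA, the STAT5 motif, occurred in none of the 9 windows and in 8.3% of all windows, while Igfals holds them in 2 of its 3 windows. The Igfbp1 window has 54.3% G and C with 8 CpG dinucleotides and that of Igfbp3 has 71.7% with 37. The windows of Igf1r (76%, 48 CpG) and Igfbp7 (73.3%, 33 CpG) were also CpG-rich. These matches describe the sequence only.

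**Figure D1:**
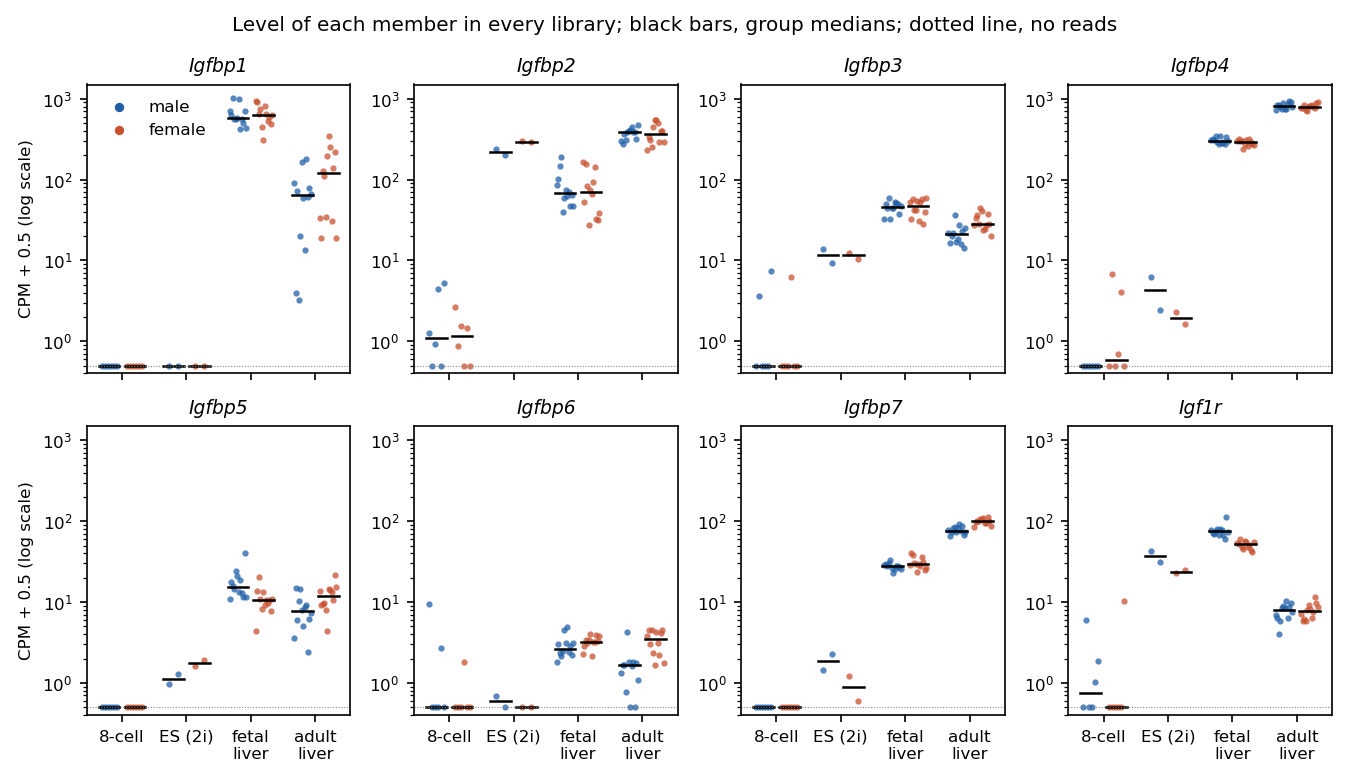
Level of each of the 8 genes in all 64 libraries, as CPM plus 0.5 on a log axis, by stage and sex, with 1 point per library and black bars for the medians of each sex; the dotted line marks libraries with no reads. Igfbp1 peaked in fetal liver at 311 to 1009 CPM, Igfbp2, Igfbp4 and Igfbp7 were higher in each adult than in each fetal liver, and Igf1r was lower in each adult than in each fetal liver.

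Igfbp1 was a gene of the livers. It had no read in any of the 12 embryos or 4 ES lines. In fetal liver its level was 311 to 1009 CPM (median 608) and in adult liver 2.77 to 342 CPM (median 68.2). A single adult liver, a female at 342 CPM, reached into the fetal range. Fetal livers differed among themselves by at most 3.25-fold and adult livers by up to 123-fold, the widest spread of any family member with reads in every adult liver. Against a floor of 3 reads over the 4 ES lines, the fetal median was at least 8212-fold and the adult median at least 921-fold higher. Its neighbour Igfbp3, the main carrier of IGF in adult serum, was detected in all ES lines (8.65 to 13.5 CPM). Igfbp3 stood at 27.4 to 59.3 CPM in fetal liver (median 45.6) and at 13.7 to 44.2 CPM in adult liver (median 24.3), so the ranges of the livers overlapped.

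Igfbp2, an IGF2-preferring binding protein, ran the other way. The male ES lines had 236 and 203 CPM and the female lines 298 and 289 CPM. Fetal livers fell below all of them, with 26.8 to 191 CPM and a median of 67.8, and adult livers had 232 to 550 CPM with a median of 387. Igfbp4, an inhibitor of IGF action that is cut by the protease PAPP-A, was low in ES lines (1.12 to 5.78 CPM). It was the most even of the family in the livers, at 235 to 348 CPM in fetal (median 298) and 709 to 934 CPM in adult liver (median 801). Igfbp7 had 0.101 to 1.75 CPM in ES lines, 22.3 to 39.7 CPM in fetal liver (median 28.1) and 64.6 to 111 CPM in adult liver (median 86.9). For these 3 genes no adult liver overlapped any fetal liver.

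Igfbp5, a binding protein held in extracellular matrix, and Igfbp6, which prefers IGF2, were sparse. Igfbp5 had 0.481 to 1.42 CPM in ES lines, 3.85 to 40.3 CPM in fetal liver (median 11.8) and 1.91 to 21.2 CPM in adult liver (median 8.86). The counts behind the adult values were 8 to 66 reads. Igfbp6 had 2 reads in all over the ES lines, 1.29 to 4.4 CPM in fetal liver and 0 to 4.05 CPM in adult liver, where 2 of 12 males had no read and no liver had more than 18. Many of these adult values lie near the level that 3 reads give, and Igfbp6 is described at that depth only.

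Igf1r fell at the last step. The male ES lines had 42.1 and 30.9 CPM and the female lines 22.1 and 24.2 CPM, fetal livers had 41.4 to 112 CPM (median 60.1) and adult livers 3.51 to 11.2 CPM (median 7.31). Every fetal liver exceeded every adult liver, and the median was 8.22 times higher in fetal liver. In bulk tissue, fewer cells of a type and less RNA per cell cannot be told apart.

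Adult and fetal livers were then compared across 13026 genes with edgeR's quasi-likelihood F test, with sex as a covariate, calling genes with a Benjamini-Hochberg adjusted p under 0.1 and an absolute log2 above 1. Of the 8 genes, 5 were called against 43.4% of all genes tested, 3 higher in adult liver (background 19.7%) and 2 lower (background 23.7%). Igfbp2 rose by a log2 of 2.78 (SE 0.187, edgeR adjusted p = 1.24e-18), Igfbp7 by 2.19 (SE 0.0487, adjusted p = 1.14e-42) and Igfbp4 by 2.01 (SE 0.039, adjusted p = 1.21e-45). Igf1r fell by 2.55 (SE 0.0835, adjusted p = 1.44e-34) and Igfbp1 fell by 2.22 (SE 0.306, adjusted p = 6.19e-09). Igfbp3 had a log2 of -0.23 (SE 0.1, adjusted p = 0.032), Igfbp5 of 0.01 and Igfbp6 of 0.15, all under the fold limit. The scale matters for the last 3. With library totals alone the median of all genes moved from -0.05 to -0.61, and Igfbp3, Igfbp5 and Igfbp6 then stood at -0.79, -0.56 and -0.41. The same 5 genes passed on that scale with the same signs, while the calls over all genes went from 2566 higher and 3088 lower to 1534 higher and 4851 lower. On the plain CPM scale the ranges of 4 of the 8 genes did not overlap between the stages (Igfbp2, Igfbp4, Igfbp7 and Igf1r), where 48.8% of genes with a median of at least 10 reads did the same. Markers of several cell types moved along with the stage. In adult liver 3 of 6 hepatocyte markers tested rose, and the list summed to 29531 to 47573 CPM there against 23964 to 31846 CPM in fetal liver. All 4 erythroid markers tested fell, the 6 of the list summing to 1688 to 2596 CPM in fetal and 15.4 to 198 CPM in adult liver. Hba-a1 and Hbb-b1 had no read in adult liver, and Hba-a1 was also at 0 in all 12 fetal females. The list summed to 1835 to 2596 CPM in those females, so a 0 of Hba-a1 cannot be read as absence of erythroid cells. Alignments that are not unique were counted apart from genes, and their part in these 0s was not tested. All 4 megakaryocyte markers fell as well. Of 9 stellate and fibroblast markers 2 were higher and 3 lower in adult liver, with a median sum of 738 CPM against 1435 CPM in fetal liver, and 4 of 5 mesothelial markers were lower (median sums 8.62 and 42.6 CPM). Cholangiocyte markers had 1 higher and 3 lower of 5, endothelial markers 2 higher and 1 lower of 9 and macrophage markers 2 higher of 7. The part of these cells in the 5 calls was not tested.

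Between fetal liver and the ES lines all 8 genes were called (14858 genes tested, background 56.7%), 7 higher in fetal liver (32.9%) and 1 lower (23.8%). The 1 lower in the liver was Igfbp2, with a log2 of -1.47 (SE 0.357, edgeR adjusted p = 0.000443). Higher in the liver, beside Igfbp1, were Igfbp4 at 6.99 (SE 0.199, adjusted p = 1.22e-24), Igfbp7 at 5.18 (SE 0.231) and Igfbp5 at 3.99 (SE 0.448). Without male line 1, which holds 60 of the ES reads of Igfbp4, that gene moved to 7.66, and without another line to between 6.74 and 6.84. Igfbp6 was called on only 2 ES reads, both in 1 male line, and its fetal median was 52.2 times the pooled ES level with a 95% counting interval of 14.4 to 431. Igfbp3 was higher by a log2 of 2.22 (SE 0.191) and Igf1r by 1.28 (SE 0.114). The ranges of 7 of the 8 genes did not overlap, against 69.9% of genes, and Igf1r overlapped through 1 fetal liver at 41.4 CPM. A tissue was set against cultured lines here, so stage and culture cannot be told apart.

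The eight-cell embryos held little RNA of the family. Igfbp1, Igfbp5 and Igfbp7 had no read in any of the 12 embryos, which allows a pooled level of up to 0.041 CPM. Igfbp2 had reads in 8 of 12 embryos, 98 in all and at most 4.8 CPM. Reads of Igfbp3, Igfbp4 and Igfbp6 appeared in 3 embryos each and those of Igf1r in 4, with up to 6.9, 6.34, 9 and 9.8 CPM, and the other embryos had none. Igf2r, the receptor that clears IGF2, had reads in all 12, at 31.5 to 246 CPM. None of the 8 genes passed the expression filter in embryos, so none entered the test between the sexes there (9087 genes tested, 0.264% called). Without the filter 5 of the 8 could be tested by edgeR and none was called. Of these 1, Igfbp4, had an unadjusted p under 0.05, as did 1908 of 14377 genes. The embryo libraries alone were made by an amplified single-cell protocol, which cannot be told apart from the stage.

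Levels between genes were compared per kilobase of merged exon, which runs from 1112 bases in Igfbp6 to 16791 in Igf1r. In ES lines Igfbp2 made up 95.1% to 97.6% of the summed level of the 7 binding proteins, at 110 to 161 CPM per kb, followed by Igfbp3 at 2.76 to 4.31. In fetal liver Igfbp1 led with 204 to 661 CPM per kb and 58.8% to 80.7% of the sum, above every other member in all 24 livers. Igfbp4 (median 67.5 CPM per kb) and Igfbp2 (36.7) followed with overlapping ranges, then Igfbp7 (23.2) and Igfbp3 (14.6). In adult liver Igfbp2 and Igfbp4 held medians of 210 and 181 CPM per kb. Their ranges overlapped, with Igfbp2 above Igfbp4 in 14 of 24 livers, so their order is not set. Igfbp7 followed at 71.9 and Igfbp1 at 44.7, and the ranges of these also overlapped. The Igfbp1 share of the sum dropped from a median of 73.6% in fetal liver to 8.51% in adult liver. Igf1r had the lowest median of the 8 in adult liver, 0.436 CPM per kb, but its range overlapped that of Igfbp6, which was above it in 21 of 24 livers.

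**Figure D2:**
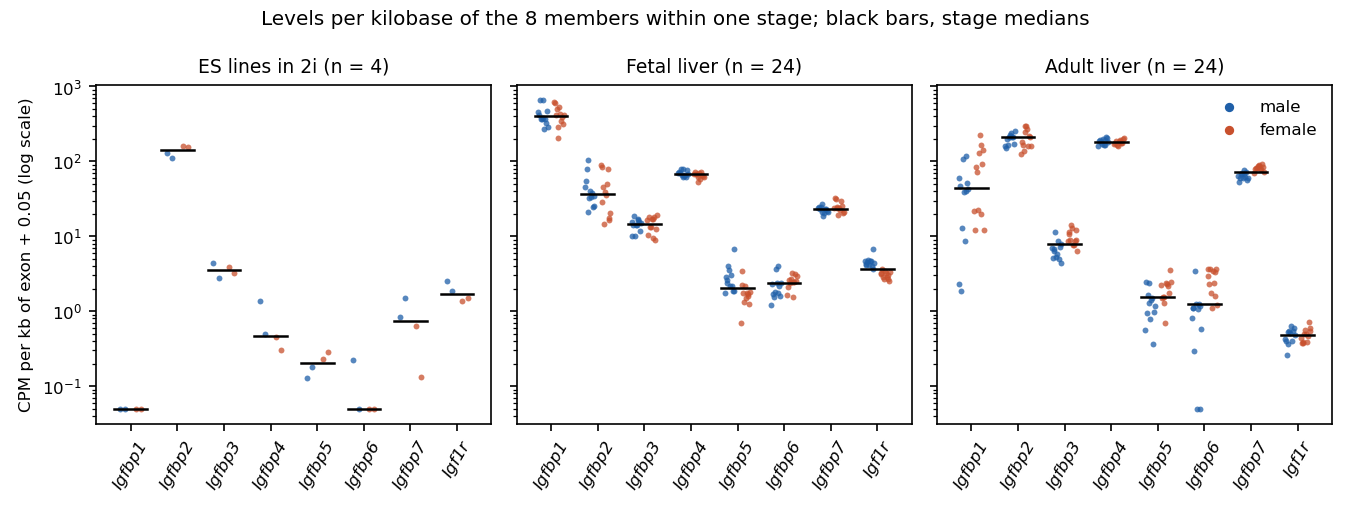
CPM per kilobase of merged exon plus 0.05, on a log axis, for the 8 genes in the ES lines, fetal livers and adult livers, 1 point per library and black bars for stage medians. The leading binding protein was Igfbp2 in ES lines (median 142), Igfbp1 in fetal liver (median 399), and Igfbp2 and Igfbp4 together in adult liver (medians 210 and 181).

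Male and female adult livers were compared over 10372 genes, and a gene was called where the edgeR adjusted p was below 0.1 with a log2 (male/female) beyond 0.5 either way. Of the 7 family genes tested 2 were called, against 9.49% of all genes, and both were higher in females (background 6.48%). Igfbp3 had 13.7 to 35.9 CPM in males (median 20.4) and 19.8 to 44.2 CPM in females (median 27.9). Of the males 6 lay below all females, and 3 females lay above all males. The log2 was -0.55 (SE 0.133, edgeR adjusted p = 0.00265). Igfbp5 had 1.91 to 14.6 CPM in males (median 7.19) and 3.93 to 21.2 CPM in females (median 11.5), a log2 of -0.60 (SE 0.259, edgeR adjusted p = 0.089). Its call held in only 9 of 24 fits that each left out 1 liver, with adjusted p from 0.0326 to 0.185: those without males 2, 4 and 5 and females 14, 15, 16, 17, 18 and 22. It was also lost with library totals alone (adjusted p = 0.104), without the expression filter (0.153) and in 1 fit of the 48 livers (0.132).

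Igfbp7 had the smallest adjusted p of the family in adult liver without passing the fold limit. Males had 64.6 to 91.9 CPM (median 75.9) and females 84 to 111 CPM (median 99). Of the 12 males 9 lay below all females, and 10 females lay above all males. The log2 was -0.36 (SE 0.0576, edgeR adjusted p = 1.32e-05). It was -0.35 in the livers of higher and -0.37 in those of lower share on genes. The sexes did not overlap in share within either group, so these fits cannot separate sex from share. In the higher group males had 32.8% to 38.7% and females 43.6% to 46.7%, in the lower 26.8% to 29.8% and 36.8% to 39.3%. Over the 24 livers centred by sex, Igfbp7 had r = 0.35 (Spearman rho = 0.39) with the share. With the share as a covariate 1 of the 7 genes tested had an unadjusted edgeR p under 0.05, as did 1880 of 10372 genes. Without that covariate 3 of the 7 did, as did 3820 of the 10372. Igfbp1 varied too much within each sex for a call: males had 2.77 to 180 CPM (median 63.3) and females 18.5 to 342 CPM (median 119), a log2 of -0.90 (SE 0.565, adjusted p = 0.263). Igfbp2 (log2 -0.04, SE 0.131), Igfbp4 (0.01, SE 0.0539) and Igf1r (-0.06, SE 0.15) lay close to 0. Igfbp6 was too sparse for the filter. Its medians were 1.14 CPM in males and 2.95 CPM in females, 8 of 12 males lay below all females, and without the filter it was called at a log2 of -1.31 (SE 0.346, edgeR adjusted p = 0.00574). No member had ranges of the sexes that did not overlap in adult liver, where 2.71% of genes did.

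The adult differences were read beside the share of reads on genes and beside cell type markers. Igfbp3 tracked that share among livers of 1 sex (Pearson r = 0.66, Spearman rho = 0.63 over 24 livers centred by sex, and 0.70 without the 2 farthest). Among the 16 livers of higher share Igfbp3 was called at -0.57 (adjusted p = 0.00641), and among the 8 of lower share it had -0.45 (adjusted p = 0.105). Igfbp5 was the reverse, with -0.37 (edgeR adjusted p = 0.532) and -1.21 (adjusted p = 0.00238). The shares of the sexes did not overlap within either group of livers, so these fits cannot separate sex from share. With the share as a covariate neither Igfbp3 nor Igfbp5 was called, and Igfbp3 moved to 0.05 (SE 0.179). With the share among uniquely placed reads only, which overlapped between the sexes at 63.8% to 71% and 62.8% to 73.4%, Igfbp3 had -0.49 (adjusted p = 0.00252), just under the fold limit, and Igfbp5 was called at -0.65 (adjusted p = 0.0339). Of 7 macrophage markers 5 were higher in females, the list summing to 278 to 480 CPM in males and 386 to 738 CPM in females, and 1 of 9 endothelial markers was (585 to 685 and 649 to 828.6 CPM). No stellate or fibroblast marker of 9 was called (518 to 839 and 700 to 1019 CPM). None of these markers was at 0 throughout either sex. The erythroid list summed to 160 to 198 CPM in males and 15.4 to 44.7 CPM in females. Its 1 gene tested, Alas2, was higher in males by a log2 of 2.79 (SE 0.113, edgeR adjusted p = 4.67e-18). Hba-a1 and Hbb-b1 were at 0, with the limit on such 0s given above. The 1 cholangiocyte marker tested was lower and the 1 pancreatic acinar marker tested higher in males. The part of these cells in the result was not tested.

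In fetal liver 2 of the 8 genes tested were called, against 4.64% of 12930 genes, and both were higher in males (background 3.81%). Igf1r had 60.4 to 112 CPM in males (median 74.2) and 41.4 to 59.8 CPM in females (median 51.3). All 12 males exceeded all 12 females, a separation seen in 1.96% of genes with a median of at least 10 reads. The log2 (male/female) was 0.58 (SE 0.0751, edgeR adjusted p = 2.38e-06), and 24 fits that each left out 1 liver gave 0.51 to 0.61, all called. Igfbp5 had 10.4 to 40.3 CPM in males (median 14.7) and 3.85 to 20.1 CPM in females (median 10.1), with a log2 of 0.75 (SE 0.225, edgeR adjusted p = 0.0148). Of the females 8 lay below all males, and 3 males lay above all females. The call held in all 24 such fits, at 0.55 to 0.87. The other 6 genes were not called, with log2 values from -0.16 (Igfbp6) to 0.08 (Igfbp4).

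**Figure D3:**
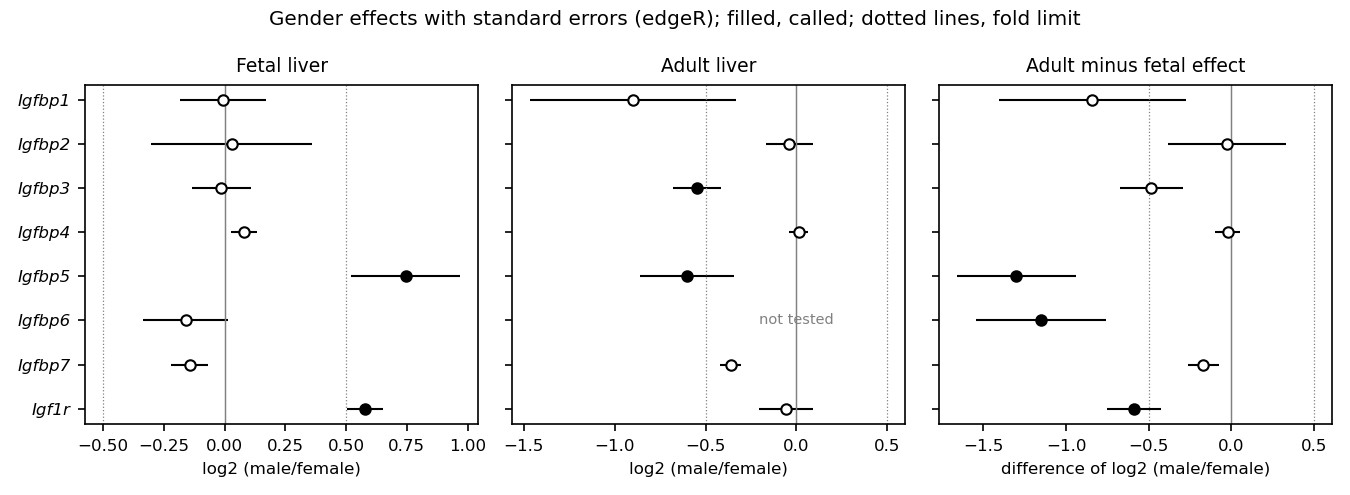
Log2 (male/female) with its standard error in fetal and adult liver, and the difference between those effects, for the 8 genes (edgeR); filled points passed the call rule and dotted lines mark the fold limit of 0.5. Igf1r (0.58) and Igfbp5 (0.75) were higher in fetal males, and Igfbp3 (-0.55) and Igfbp5 (-0.60) lower in adult males.

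The share of reads on genes separated the fetal sexes completely, so sex and share cannot be told apart in these 24 livers. Within a sex, Igf1r and Igfbp5 were higher where the share was lower (r = -0.60 and -0.45, rho = -0.31 and -0.21 over 24 livers centred by sex), and without the 2 farthest livers r was -0.33 and -0.25. Male 11 had the lowest share (38.7%) and the highest Igf1r and Igfbp5. With the share as a covariate neither gene was called, at 0.25 for Igf1r (adjusted p = 0.582) and -0.07 for Igfbp5 (adjusted p = 0.98), and 11 of the 12930 genes were called in all. Cell type markers moved both ways between the fetal sexes. Of 5 cholangiocyte markers 3 were lower in males (Krt19, Krt7 and Epcam) and 1, Sox9, was higher. The list summed to 32.2 to 77.7 CPM in males (median 47.5) and 29.7 to 372 CPM in females (median 51.2). Pancreatic acinar markers reached 385 CPM in a male and 771 CPM in a female, against medians of 14.8 and 18.4 CPM, and their 1 gene tested was not called. Single genes moved in other lists: Eng, 1 of 9 endothelial markers, and Col1a1, 1 of 9 stellate and fibroblast markers, were higher in males, as was 1 of 4 megakaryocyte markers. The lists summed to 922 to 1117 CPM in males and 718 to 976 CPM in females for endothelium, and to 1335 to 2087 and 1100 to 2234 CPM for stellate cells and fibroblasts, with none of their markers at 0. The part of these cells in the result was not tested.

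**Figure D4:**
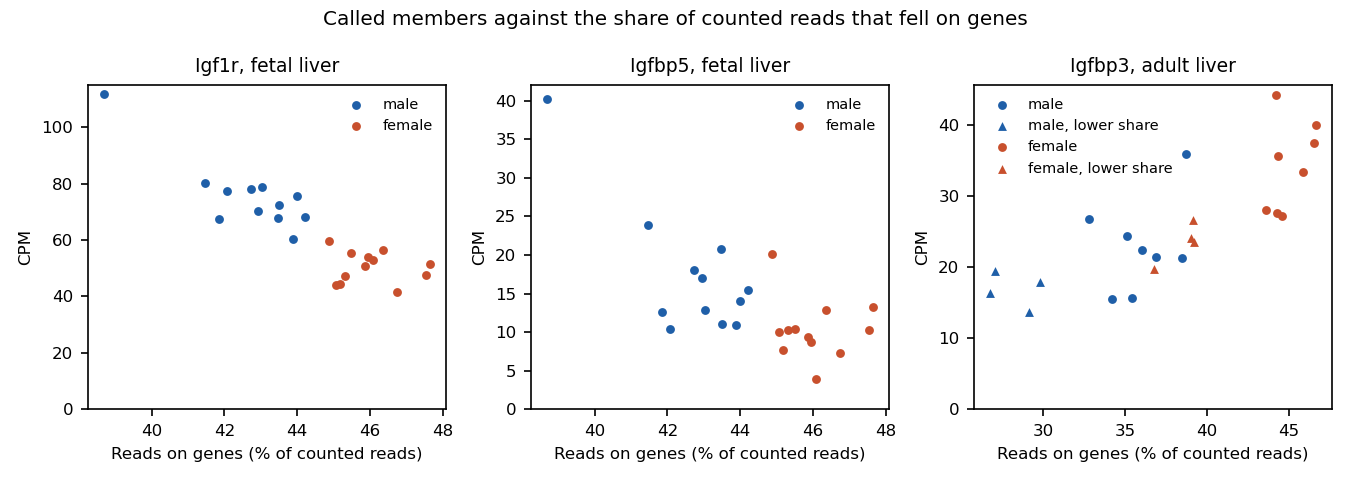
CPM of Igf1r and Igfbp5 in fetal liver and of Igfbp3 in adult liver against the percentage of counted reads that fell on genes, 1 point per liver, with triangles for the adult livers of lower share. Fetal males (38.7% to 44.2%) and females (44.9% to 47.6%) occupied separate ranges of the share, and Igfbp3 was higher where the share was higher in both adult sexes.

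The sex effect itself differed between the livers for 3 of the 8 genes by an interaction test in the 48 livers (13026 genes tested, background 13.7%), each with a lower log2 (male/female) in adult than in fetal liver (background 8.53%). For Igfbp5 the difference was -1.30 (SE 0.358, edgeR adjusted p = 0.00551), from higher in fetal males to lower in adult males. For Igf1r it was -0.59 (SE 0.163, adjusted p = 0.00515). For Igfbp6 it was -1.15 (SE 0.391, adjusted p = 0.0234), on few reads. Igfbp3 reached -0.48 (SE 0.191, adjusted p = 0.0535), under the fold limit. With the share on genes as a covariate none of the 3 was called.

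In the ES lines 5 of the 8 genes could be tested between the sexes. None was called by edgeR, where 9.5% of 12678 genes were. Of the 5, 2 had an unadjusted edgeR p under 0.05, as did 3088 of the 12678 genes. DESeq2 called none of the 5 either. Igfbp2 was lower in males by a log2 of -0.45 (SE 0.1, adjusted p = 0.0669), under the fold limit. Igf1r had 0.62 (SE 0.186, adjusted p = 0.125) and Igfbp4 1.36 (SE 0.62, adjusted p = 0.248). With 2 lines per sex, 5 of the 8 genes had ranges that did not overlap, and so did 57.7% of all genes with a median of at least 10 reads. Among the 5, Igfbp5 and Igfbp7 had medians of 9.5 and 8.5 reads, under that minimum. The ES calls over all genes depended on single lines: 2606 and 3070 genes were called without male line 1 or 2, and 0 without either female line, where 1290 and 1163 genes had an unadjusted p under 0.05. A fit without a male line takes its spread from the female pair alone, with the lone male line assumed to vary like it, and the reverse holds without a female line. In such fits Igfbp2 and Igfbp7 were called without male line 1, Igfbp4 and Igf1r without male line 2, and no member without a female line.

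The rest of the pathway was read from a list of 45 genes. Of 34 tested between adult and fetal liver, 6 were higher and 4 lower in adult liver, where 19.7% of all genes were higher and 23.7% lower. Igf1 went from 25.8 to 55.9 CPM in fetal liver to 437 to 1068 CPM in adult liver (log2 4.81, SE 0.0912), while Igf2, the fetal ligand, went from 857 to 1793 CPM to at most 1.16 CPM, with reads in 10 of 24 adult livers. Igfals rose from 11.3 to 20.1 CPM to 108 to 253 CPM (log2 4.03, SE 0.0688). Ghr, the growth hormone receptor, rose by 3.03 (SE 0.0455). Igf2r fell by 1.76 (SE 0.0542) and Grb10, an adaptor that restrains the insulin and IGF1 receptors, fell by 7.21 (SE 0.0697), whereas Grb14, a related adaptor, rose by 2.52 (SE 0.0546). Insr, the insulin receptor, had a log2 of 0.56 (SE 0.0534), under the limit, against -2.55 for Igf1r. On the plain CPM scale the median of Insr was 230 in fetal and 221 in adult liver, so its direction depends on the scale. The edgeR adjusted p-values of these calls were at most 8.13e-36.

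Between the sexes the list was read beside the share of all genes called. In adult liver 32 of its genes were tested, where 9.49% of all genes were called, and 2 were lower in males: Igfals at a log2 of -0.67 (SE 0.0753, edgeR adjusted p = 1.91e-08), with 108 to 188 CPM in males and 186 to 253 CPM in females, and Socs2, a feedback inhibitor of growth hormone signalling, at -2.14 (SE 0.336, adjusted p = 4.02e-05). Igf1 had -0.35 (SE 0.115, adjusted p = 0.0272) and Igf2r 0.36 (SE 0.0609, adjusted p = 3.62e-05), both under the fold limit. In fetal liver (4.64% of all genes) 34 were tested and only Foxo1, a forkhead factor that insulin and IGF signalling keep out of the nucleus, was higher in males (log2 0.69, SE 0.152, adjusted p = 0.00126). Igf2 had 0.41 (SE 0.0649, edgeR adjusted p = 3.00e-05) and Insr 0.34 (SE 0.0635, adjusted p = 0.000174) there, under the limit. The part of the share of reads on genes in the liver values of this list was not tested. In ES lines (9.5% of all genes) 1 of 32 was higher and 3 lower in males, with Igfals higher (log2 1.72, SE 0.303, adjusted p = 0.0382) and Htra1, a protease that cuts IGFBPs, lower (-1.61, SE 0.251, adjusted p = 0.0296). In embryos none of 22 was called. In the interaction test (8.53% of all genes lower) 5 of 34 had a lower log2 (male/female) in adult than in fetal liver, among them Socs2, Igfals, Irs2 and Foxo1. Between fetal liver and ES lines 23 of 42 were higher and 6 lower in fetal liver, beside 32.9% and 23.8% of all genes, Igf2 by a log2 of 10.38 (SE 0.185), Ghr by 6.86 (SE 0.171) and Stat5b by 4.22 (SE 0.103), all with adjusted p at most 1.42e-26.

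The spread of Igfbp1 among adult livers was read against 10 genes of fasting and stress. Centred by sex on log2 CPM over the 24 livers, it went with G6pc (Pearson r = 0.85, Spearman rho = 0.84), Pck1 (0.81 and 0.76) and Irs2 (0.79 and 0.78), the first pair being enzymes of glucose production and the third an adaptor of insulin signalling. Leaving out the 2 livers farthest from the Igfbp1 median gave r of 0.77, 0.75 and 0.74. Tat had r = 0.67 and Cdkn1a 0.72, the latter at a median of 4.5 reads. Ppargc1a had -0.13 and Trib3 -0.40, while Fgf21, Atf3 and Gdf15 had 0.33, 0.14 and 0.03. The list itself had 1 of 7 genes tested called between adult sexes (Ppargc1a, lower in males), where 9.49% of all genes were. Between fetal sexes it had 1 of 9 (Pck1, lower in males), where 4.64% of all genes were called. In fetal liver, where Igfbp1 varied less, the same measure was 0.69 for Ppargc1a, 0.60 for Pck1 and 0.58 for G6pc, the last pair at medians of 16.5 and 32.5 reads. Irs2 had only 0.26 there, and the other 6 genes ran from -0.10 (Tat) to 0.41 (Trib3). These are correlations between genes of the same libraries, given as descriptions.

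**Figure D5:**
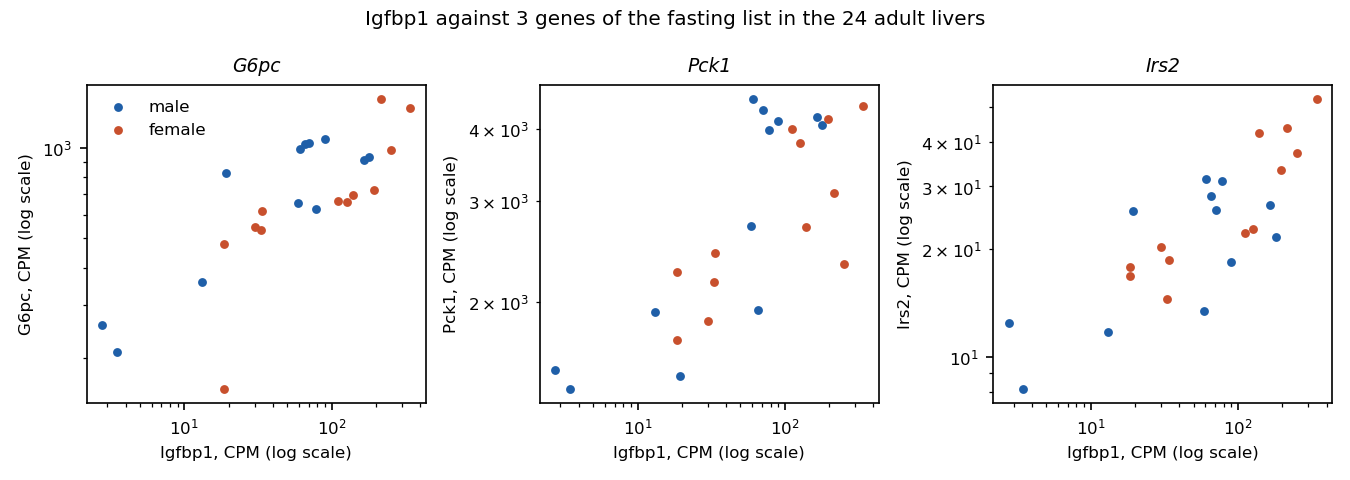
CPM of G6pc, Pck1 and Irs2 against that of Igfbp1 in the 24 adult livers, on log axes, 1 point per liver. Igfbp1 spanned 2.77 to 342 CPM, and the 3 genes were higher where it was higher (r = 0.85, 0.81 and 0.79 after centring by sex).

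Among all genes with a median of at least 50 reads, those most like each member across the 24 livers of a stage (centred by sex, log2 CPM) were listed. In fetal liver, out of 10459 genes, Igfbp2 went with Hrg, Fetub and Serping1 (r = 0.94, 0.92 and 0.92), Igfbp5 with Plagl1, Sema5a and Lox (0.89, 0.82 and 0.82) and Igf1r with Mll1, Itga5 and Dag1 (0.89, 0.88 and 0.87). Igfbp4 went with Por, Grn and Col18a1 (each 0.82), Igfbp7 with App, Mcam and Prex2 (0.83, 0.75 and 0.75), Igfbp3 with Pla2g7, Rp2h and Cd79b (0.81, 0.80 and 0.80) and Igfbp1 with Khnyn and Ocln (0.82 and 0.79). In adult liver, out of 6414 genes, Igfbp1 went with Irf2bp2, Slc25a25 and Slc38a2 (0.88, 0.87 and 0.85), Igfbp3 with Reln, Col14a1 and Pemt (0.80, 0.77 and 0.76) and Igfbp4 with Rxra, Cpn2 and Txn2 (0.81, 0.69 and 0.69). Igfbp2 went with Rrbp1, Wdr13 and Atp8b1 (0.75, 0.73 and 0.73) and Igfbp7 with Rpl4, Mprip and Tsen34 (0.73, 0.72 and 0.71). No gene named here was in the pathway list, and each r is the highest of many.

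Within the family the members did not move as a block. In fetal liver the closest pairs were Igf1r with Igfbp5 (r = 0.58) and Igfbp1 with Igfbp4 (0.57), and the neighbours Igfbp1 and Igfbp3 had -0.28. In adult liver Igfbp3 went with Igfbp7 (0.64) and against Igfbp4 (-0.56), while Igfbp1 and Igfbp3 had -0.15. These values too are over 24 livers centred by sex, and the livers share differences in depth and in the share of reads on genes.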

How the data were processed

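RNA was sequenced from single eight-cell embryos (amplified single-cell protocol) and from ES lines, fetal livers and adult livers (stranded total RNA kit). The authors deposited raw counts: reads per gene from HTSeq after alignment to mm10 with TopHat2 2.0.4 and Bowtie2 2.1.0, with SAMtools 0.1.18 and Picard named in the submitters' processing notes. The study's methods state that Picard was used to filter duplicate reads. The strand setting of the counting was not given in the sources used here. The 5 summary rows of each file were left out of totals and tests. They gave the share of counted reads on genes, whose denominator includes the row for alignments that are not unique.

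Levels are CPM over reads on genes, and per-kilobase levels used merged exons of GENCODE M21. Tests used edgeR 4.0.16 in R 4.3.3 (TMM, filterByExpr, robust quasi-likelihood F test, two-sided, adjusted over all genes tested). Each SE was obtained by dividing the size of the log2 value by the root of its F statistic. Call limits were an adjusted p of 0.1 with an absolute log2 of 0.5 between sexes and 1 between stages. Alternatives were DESeq2 1.42.0, its size factors, no filter, covariates and subsets by share, a replicate block and each sample left out. Functions were tested on simulated data. Log2 CPM for correlations had a pseudocount of 0.5. Summaries used Python 3.11.15.

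The genes, lists and tests were chosen with earlier results of these data known. Named genes were the 8 members, Igf1, Igf2, Igf2r, Insr, Igfals, up to 3 others of the pathway list per comparison with the smallest adjusted p, the fasting list and the 3 genes most like each member, except for genes that are not reported here. The titles number the fetal and adult livers alike from 1 to 24, but same-numbered livers did not deviate together (r from -0.21 to 0.12 over 6184 genes), and no pair of libraries held identical counts.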

Additional observations from a re-analysis of the deposited data

Results flagged for a closer look

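Among the 9 sets of 6 embryos of 1 sex in which a family member had reads, 5 held a single embryo whose gap to the next passed Dixon's limit at the 95% level. In 3 of the 5 sets the other 5 embryos had no read, so that any single embryo with reads passes by construction, and the rate of about 1 in 20 that chance gives does not apply to counts that are mostly 0. Igfbp3 stood at 5.76 CPM in female embryo 10 and at 0 in the other 5 females. Igfbp6 stood at 9.002 CPM in male embryo 1 with the next male at 2.21, and at 1.3 CPM in female embryo 10 with the other females at 0. Igf1r stood at 5.51 CPM in male embryo 2 with the next male at 1.35, and at 9.8 CPM in female embryo 12 with the other females at 0.

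The sex effect differed between adult and fetal liver, by the interaction test, for Igfbp5 (-1.30), Igfbp6 (-1.15) and Igf1r (-0.59), and for the pathway genes Socs2 (-2.12), Irs2 (-0.65), Foxo1 (-0.54) and Igfals (-0.51). Each value is the log2 (male/female) of adult minus that of fetal liver. The share of reads on genes differed between the sexes at both stages. For the family members its part was not tested beyond the fits with the share as a covariate. For the pathway genes its part was not tested.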

How the results depend on the processing

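The 5 calls between adult and fetal liver and the 8 between fetal liver and ES lines were counted again under each alternative run, and with the title number as a replicate block the former count was also 5. The block changed no call of a family member, and the numbers do not pair the livers. In adult liver 1 gene was called in place of 2 with library totals alone, with the share among uniquely placed reads as a covariate, and within the livers of higher or of lower share; with the share on genes as a covariate it was 0. That covariate gave 0 in fetal liver, as did the share among uniquely placed reads, and 0 for the interaction. The interaction count was 4 in place of 3 with DESeq2 (1870 of 13026 genes called) and with its size factors (1803). It was also 4 without the adult livers of lower share (1432 of 13353 genes called). In fetal liver the share among uniquely placed reads was 50.4% to 59.3% in males and 61.15% to 65% in females. It therefore cannot be told apart from sex there either. Under the share on genes Igfbp3 in adult liver turned to 0.046 and Igfbp5 in fetal liver to -0.069. Under the share among uniquely placed reads Igfbp5 in fetal liver turned to -0.50. Leaving out 1 sample gave 0 to 2 calls in adult liver and 0 to 2 in ES lines, the 2 without either male line, where 1 male line is assumed to vary like the female pair. Leaving out a sample cost Igfbp5 its adult call in 15 of 24 fits. Igfbp3 fell below the fold limit without male 9 or female 17. Over single genes, and setting aside the fits that leave out 1 sample, 236 of 254 values kept their direction where called and their side of the threshold, 12 lost a call, 3 gained one and 3 turned. With TMM-scaled CPM 7 of 8 genes kept the order of their stage medians, the exception being Igfbp5 between the livers. Library totals alone, the share among uniquely placed reads, the interaction with the share, and the fits without livers of lower share were chosen after seeing the data. Over all genes, calls between fetal sexes went from 600 to 11 and 7 with the 2 share covariates and to 1057 without the filter. Those between adult sexes went from 984 to 614 with the share on genes and to 1518 without the filter, those of the interaction from 1787 to 533 with that share, those between the livers from 5654 to 8505 without the filter, and those between embryos from 24 to 64 with DESeq2. Those between ES lines went from 1205 to between 0 and 3070 without 1 line. The depth of the adult livers limits Igfbp5, Igfbp6 and Igf1r.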
